A study of Mus musculus with 12 samples.

Results

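The Hox cluster genes are the homeobox genes that lie side by side in the Hoxa, Hoxb, Hoxc and Hoxd clusters, numbered by paralog group from 1 at the anterior-acting end to 13 at the posterior-acting end. They were chosen by name: rows of the deposited table whose transcript maps in the GENCODE mouse annotation (GRCm38) to a protein-coding gene with a Hoxa to Hoxd symbol. Reported here are 37 such genes of 22467 listed transcripts, 1 transcript per gene. They are 10 in the Hoxa cluster on chromosome 6, 10 in Hoxb on chromosome 11, 8 in Hoxc on chromosome 15 and 9 in Hoxd on chromosome 2. Of these, 26 passed the filter on low counts used for every test, which asked for more than 0.75 CPM (counts of a transcript scaled to a common library size) in at least 3 ribosome profiling libraries and kept 12576 transcripts. The 11 that did not pass were Hoxa6, Hoxa13, Hoxb13, Hoxc11, Hoxc13, Hoxd3, Hoxd4, Hoxd8, Hoxd11, Hoxd12 and Hoxd13.

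The samples were single whole mouse embryos at E8.5, 3 wild type (WT, Rpl10a +/+) and 3 homozygous for a loss-of-function allele of the ribosomal protein gene Rpl10a (Rpl10a LOF/LOF, here LOF). Each embryo gave 1 library of ribosome-protected fragments (RPF, reads from mRNA held by ribosomes) and 1 RNA-seq library. The LOF allele is a deletion within the first intron made with CRISPR/Cas9, present in every cell from conception, and yields an RPL10A/uL1 protein with an N-terminal extension that still enters ribosomes. The mutants later lose the tissue behind the hindlimbs, and the comparison asked which mRNAs differ in ribosome occupancy before that loss begins.

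Hox genes encode homeodomain transcription factors that give cells of the neural tube, somites and lateral mesoderm their position along the head-to-tail axis. Within a cluster they are switched on in order of position, so that low-numbered genes come on first and reach furthest forward, and high-numbered genes come on last, in the tail end and the allantois. Genes with the same number in different clusters descend from a common ancestor and partly replace each other.

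Because the clusters arose by duplication, members share stretches of their homeobox, and this bears on which counts can be trusted. An identical run of 37 bases in Hoxb6 and Hoxb7 held the homeobox codons for the DNA-recognition helix, in capitals (TGGTTNCAGAAN, coding strand). A stretch of 30 bases of it is shown because a ribosome footprint is about that long, so that a read from it could not be placed on 1 member.
Hoxb6 (chr11:96300830-96300859, plus strand) and Hoxb7 (chr11:96289526-96289555, plus strand): TGGTTTCAGAACcggcgcatgaagtggaaa
All coordinates are GRCm38, and the stretch is in coding sequence in both genes. The motif was found in the listed coding sequence of 32 of the 37 Hox genes and of 0.994% of the 12570 coding transcripts tested. It was not found in those of Hoxa5, Hoxa7, Hoxc4, Hoxc10 and Hoxd10. The search was by letters and misses other codons for the same amino acids, and the listed CDS of Hoxa7 has only 258 bases. A gene without these letters may therefore still encode the helix.

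Such sharing touched few windows for most members. For 35 of the 37, at most 23.3% (Hoxa2) of the 30-base windows of the counted coding sequence (CDS) also occurred in another listed transcript. The exceptions were Hoxd3, with 1213 of 1213 windows, and Hoxd4, with 539 of 664, both shared with Gm28230, a listed transcript that runs through both genes. Hoxd3 had 0 RPF counts in all 6 embryos, against 27, 91 and 72 RNA counts in WT replicates 1 to 3 and 64, 57 and 31 in LOF. Hoxd4 likewise had 0 RPF counts in all 6, against 34, 134 and 110 RNA counts in WT and 74, 87 and 35 in LOF. A count of 0 allows up to 3 counts per library, or between 0.274 and 0.437 CPM in the RPF libraries, which covers counting error only. How reads that fit more than 1 transcript were counted is not given in the sources used here, and the 0 is not read as absence of translation of Hoxd3 or Hoxd4.

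The clusters also hold microRNA genes, and matches to the microRNAs' seeds in the listed 3' UTRs of the Hox genes are a sequence feature the choice of members did not use. The 4 mature microRNAs fall into a pair with 1 seed (miR-10) and a pair with another (miR-196). They are printed from RefSeq (GRCm38.p6) with the seed, bases 2 to 8, in capitals, each at 1 gene. The mature miR-196a-5p also comes from Mir196a-2, which lies in the Hoxc cluster (chr15:102973365-102973386, plus strand).
mmu-miR-10a-5p (Mir10a, chr11:96317186-96317208, plus strand): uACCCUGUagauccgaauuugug
mmu-miR-10b-5p (Mir10b, chr2:74726074-74726096, plus strand): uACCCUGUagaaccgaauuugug
mmu-miR-196a-5p (Mir196a-1, chr11:96265187-96265208, plus strand): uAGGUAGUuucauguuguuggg
mmu-miR-196b-5p (Mir196b, chr6:52230129-52230150, minus strand): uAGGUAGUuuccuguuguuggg
The complement of the miR-196 seed, ACTACCT on the transcript strand, stood in the 3' UTR of 8 of the 26 Hox genes past the filter: Hoxa4, Hoxa5, Hoxa7, Hoxa9, Hoxb1, Hoxb6, Hoxb7 and Hoxc8. It stood in 6.5% of the 12408 tested transcripts with a 3' UTR of at least 20 bases, whose UTRs differ in length (median 1026 bases over all and 869 over the Hox genes). Hoxa7, with 4 matches, and Hoxc8, with 2, held more than 1. Hoxa7 is shown by its best-paired site, and Hoxc8 by 1 of its 2 sites, which paired equally (12 of 22 bases each).
Hoxa7 (chr6:52215210-52215231, minus strand, 3' UTR): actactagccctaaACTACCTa
Hoxc8 (chr15:102992976-102992997, plus strand, 3' UTR): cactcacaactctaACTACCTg
The complement of the miR-10 seed, ACAGGGT, stood in 3 of the 26, Hoxa3, Hoxb3 and Hoxd1, and in 13.4% of the 12408. These matches are letters in a UTR, and binding was not measured.

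The RPF libraries held 7041357 to 10863499 counts and the RNA libraries 9132521 to 26561843, and all levels are CPM after TMM scaling of each kind of library. Brain and spinal cord, somite, tail bud, heart, gut, visceral endoderm, blood and trophoblast marker genes all passed the filter, and 3 genes of adult tissues (Alb, Myh2 and Krt10) summed to at most 2.34 CPM in any library. The summed RPF level of 4 Y-linked genes was 153 to 181 CPM in the WT embryos and LOF replicate 2, and 9.33 and 0.38 CPM in LOF replicates 1 and 3. The RPF level of Rpl10a was 1562, 1611 and 1679 CPM in WT and 1125, 1040 and 940 CPM in LOF, so the genotypes did not overlap. The extended protein is still made, so the labels do not by themselves predict a lower level. Of the marker lists, 5 of 6 visceral endoderm genes were called lower in LOF in RPF and 1 of 5 paraxial mesoderm genes was (Msgn1, log2 fold change -0.55, adjusted p = 0.0855), while 2 of 5 primitive blood genes and 2 of 4 heart genes were called higher, where 2.19% of all transcripts were called in either direction. Each library is 1 embryo, and which embryos shared a litter is not given in the sources used here.

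In WT embryos the Hox genes with the highest RPF levels came from groups 1, 6, 8 and 9. Levels of different genes are compared only per length in this paragraph: RPF as CPM per kilobase (kb) of the counted CDS and RNA as CPM per kb of transcript. The highest RPF level was that of Hoxc8, a gene of thoracic identity, at 38.6 CPM per kb ± 3.93 (SD, n = 3), followed by Hoxb9 at 32.5 ± 2.35, Hoxb1, a hindbrain gene of the fourth rhombomere, at 27.9 ± 1.79, Hoxb8 at 23.1 ± 1.86 and Hoxb6 at 21.9 ± 2.21. The means of Hoxc8 and Hoxb9 differed by less than the sum of their SDs, as did those of Hoxb8 and Hoxb6. On the RNA scale the order was another, led by Hoxb9 at 37.2 CPM per kb of transcript ± 1.80 and Hoxb2, which acts in the hindbrain, at 26.0 ± 3.16, with Hoxc8 at 17.9 ± 0.67.

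**Figure D1:**
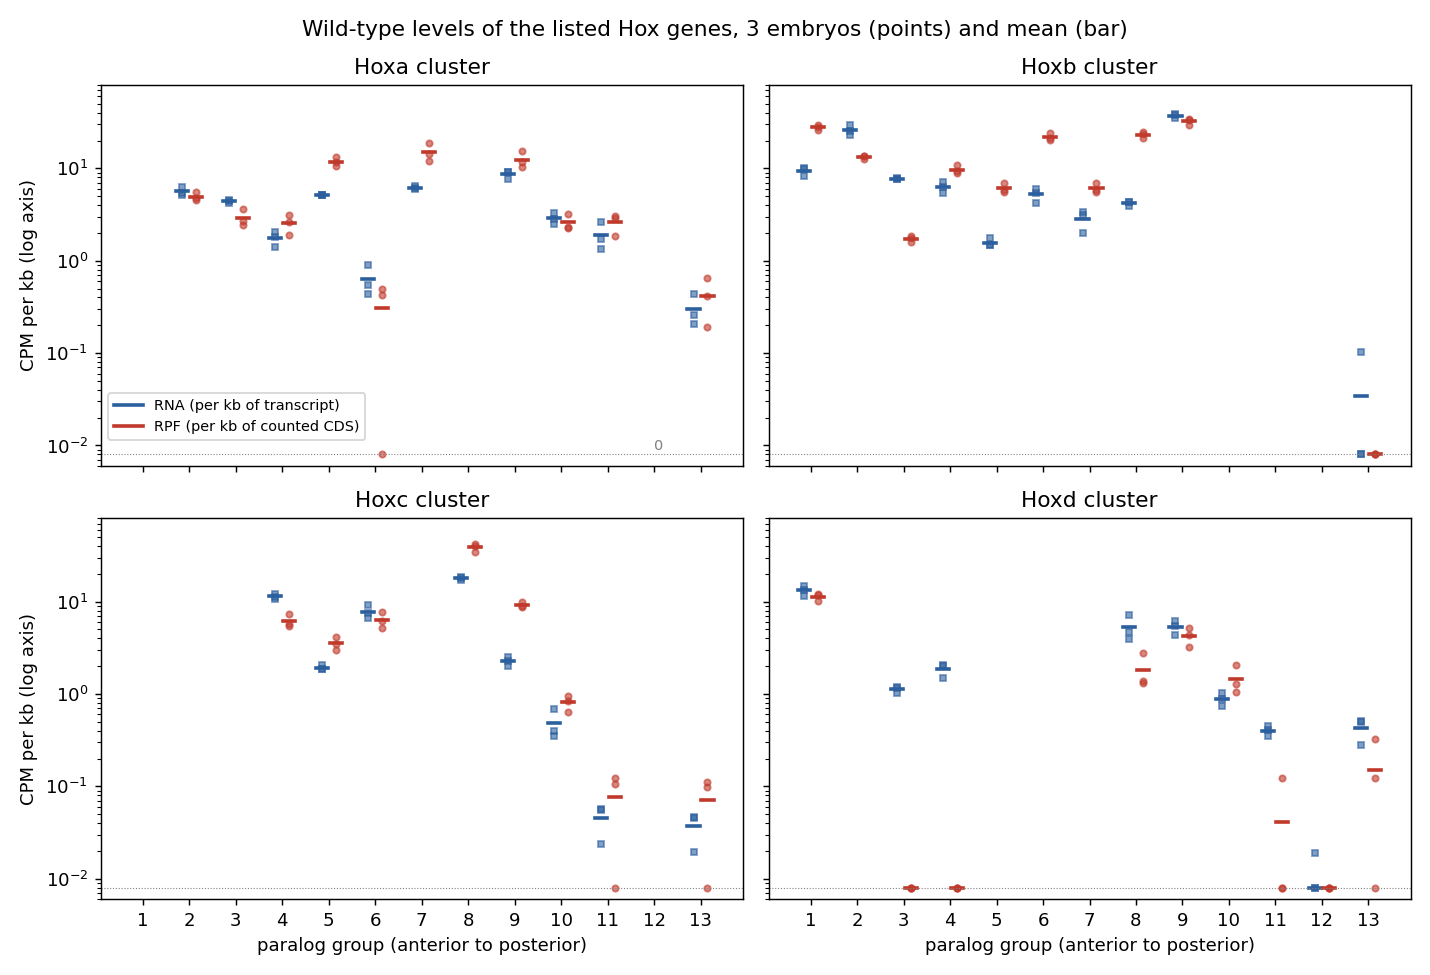
RNA (squares, CPM per kb of transcript) and RPF (circles, CPM per kb of counted CDS) of the 37 Hox genes in the 3 WT embryos, on a log axis against paralog group, 1 panel per cluster, with bars at the means and values of 0 on the dotted line. All means above 5 CPM per kb were in groups 1 to 9, and Hoxd3 and Hoxd4 had no RPF counts.

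The leading gene of each cluster by RPF level per length was Hoxa7 in Hoxa, Hoxb9 in Hoxb, Hoxc8 in Hoxc and Hoxd1 in Hoxd. Hoxb9, the most posterior Hoxb gene with more than a few counts, had 254, 202 and 198 RPF counts in WT replicates 1 to 3 and 886, 2511 and 1884 RNA counts. Hoxc8 had 250, 229 and 267 RPF counts and 286, 872 and 722 RNA counts. Hoxd1, an anterior-type gene of the Hoxd cluster, had 103, 96 and 104 RPF counts and 190, 642 and 574 RNA counts. The RPF counts of these 3 genes were steady between embryos, while their RNA counts followed the depth of the RNA libraries. Hoxa7, a gene of the thoracic somites, had only 31, 32 and 23 RPF counts, and its 15.1 CPM per kb ± 3.47 came from a listed transcript model with a counted CDS of 198 bases. A longer reading frame of Hoxa7 was not used here, so its place at the head of the Hoxa cluster rests on that model.

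Levels at the posterior end of the clusters were low. Per kb of counted CDS, the summed WT RPF level was 63.5 CPM ± 3.85 (SD, n = 3) over the 3 genes of group 8, 4.89 ± 1.10 over the 3 of group 10 and 2.74 ± 0.67 over the 3 of group 11. Not scaled for length, the 11 genes of groups 10 to 13 summed to 6.95, 10.2 and 8.03 CPM of RPF and 15.1, 14.7 and 19.5 CPM of RNA in WT. Hoxa10 and Hoxa11, genes of the lumbosacral region and limb, made up most of that sum. Hoxb13 and Hoxd12 had 0 RPF counts in WT, Hoxc11 and Hoxc13 had 2 each over the 3 embryos, and Hoxd13, which patterns digits and the genital bud, had 4. Hoxa13, which also acts in the allantois and its vessels, had 5, 6 and 2.

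The ratio of RPF to RNA in the same WT embryo describes how densely ribosomes were found per mRNA. It is given as a log2 ratio of RPF per kb of counted CDS over RNA per kb of transcript, relative to the median transcript of the embryo, so that 0 is the median, and no test was made. The anterior Hox genes lay low and the middle groups high. Of the genes past the filter, 8 of 9 in groups 1 to 4 were below 0, with a median of -0.96, and in groups 5 to 8, 1 of 9 was below 0, with a median of 0.46. In group 9, 3 of 4 genes were below 0 (median -0.59), and in groups 10 to 13, Hoxa10, Hoxa11 and Hoxd10 were below 0 and Hoxc10 above (median -0.14), and all but Hoxa10 had embryos on both sides of 0. Over all 26 genes the median was -0.15, with 15 below 0, and the quartiles of all 12570 transcripts ran from -0.77 to 0.64. That median was -0.26 without WT replicate 1, -0.06 without replicate 2 and -0.05 without replicate 3 (13 below 0), and -0.74 without scaling for length. By cluster, the medians were 0.39 for Hoxb (9 genes), 0.11 for Hoxc (6), -0.24 for Hoxa (8) and -0.96 for Hoxd (3).

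**Figure D2:**
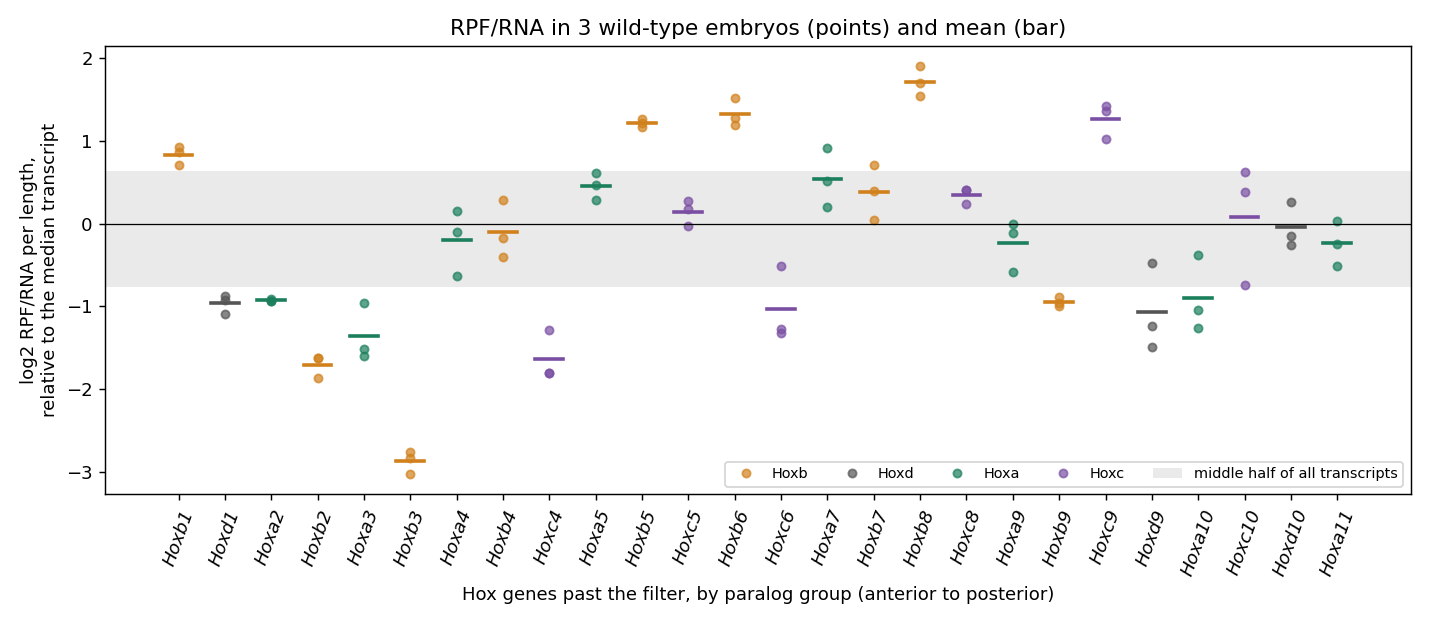
Log2 RPF/RNA per length, relative to the median transcript, in the 3 WT embryos (points) with the mean (bar), for the 26 Hox genes past the filter in order of paralog group, coloured by cluster. Grey marks the range between the quartiles of all transcripts, from -0.77 to 0.64. Groups 5 to 8 lie mostly above 0, and Hoxb3, at -2.88, lies lowest.

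The 4 highest ratios past the filter belonged to 3 Hoxb genes and 1 Hoxc gene of groups 5 to 9. Hoxb8 stood at 1.90, 1.54 and 1.70 in WT replicates 1 to 3, higher than 96.7% of all transcripts. Hoxb6 stood at 1.52, 1.20 and 1.27, while Hoxb7, which lies between Hoxb8 and Hoxb6, had 0.71, 0.40 and 0.05. Hoxb5, a regulator of the cervical and brachial region, stood at 1.22, 1.26 and 1.17. Hoxc9, a determinant of thoracic motor neurons, stood at 1.42, 1.36 and 1.03. The embryos of Hoxb8 did not overlap those of the others, while Hoxb6, Hoxc9 and Hoxb5 did not differ from each other beyond the spread between embryos.

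Their paralogs differed widely. Hoxc8, of the same group as Hoxb8, had a ratio of 0.35 ± 0.097 (SD, n = 3). Hoxc6, of the same group as Hoxb6, had -1.04 ± 0.45, the only one below 0 of the 9 members of groups 5 to 8 past the filter. In group 9, Hoxc9 at 1.27 ± 0.21 stood apart from Hoxa9 at -0.24 ± 0.31, Hoxb9 at -0.95 ± 0.052 and Hoxd9 at -1.07 ± 0.53. In group 5 all 3 members were above 0, at 0.46 ± 0.16 for Hoxa5, 1.22 ± 0.046 for Hoxb5 and 0.14 ± 0.15 for Hoxc5. Of the 2 group 1 genes described, Hoxb1 had 0.83 ± 0.11 and was the only one above 0 of the 9 genes of groups 1 to 4 past the filter, and Hoxd1 had -0.96 ± 0.11.

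The 4 lowest ratios among the 26 genes past the filter were all in groups 2 to 4. Hoxb3, which acts in the hindbrain and pharyngeal arches, was lowest at -2.77, -3.03 and -2.84, in the lowest 1.42% of transcripts, from 25, 17 and 21 RPF counts against 215, 661 and 507 RNA counts. Hoxb2, its neighbour, had -1.63, -1.62 and -1.86 from 151, 109 and 131 RPF counts. Hoxc4 had -1.81, -1.80 and -1.29, and Hoxa3, which patterns the third pharyngeal arch and its glands, had -1.61, -1.51 and -0.96. The embryos of Hoxb3 did not overlap those of any other member past the filter. Their other paralogs past the filter were higher, Hoxa2 at -0.92 ± 0.015, Hoxa4 at -0.20 ± 0.40 and Hoxb4 at -0.10 ± 0.35.

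The listed transcripts of Hoxb3 and Hoxb2 were the members with the most exon sequence opposite an annotated antisense gene: 70.5% of the Hoxb3 transcript and 58.5% of the Hoxb2 transcript lay opposite exons of Hoxb3os. The listed Hoxb3os transcript had 18, 57 and 50 RNA counts in WT. Whether reads were counted by strand is not given in the sources used here, so reads from a gene and its antisense partner cannot be told apart. The members next in this order were Hoxa11 (35%), Hoxa7 (28.9%), Hoxa3 (19.4% for Hoxaas2), Hoxa4 (16%) and Hoxd3 (11.7%). The part of this overlap in the ratios was not tested.

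The Hox genes also share a build. The 26 genes past the filter had a median CDS of 814.5 bases against 1428 for all transcripts, 2 exons against 9, and a 5' UTR GC content of 51.5% against 64.8%. Across the 26 genes the ratio went down with CDS length (Spearman's rho -0.57, Pearson's r -0.60), as it did over the 12570 transcripts (rho -0.40). RPF in this ratio is divided by the length of the counted CDS, so a negative correlation is partly built in. A correlation without scaling for length is not given here. The genes share libraries and are not independent replicates, and the codons left out near the ends of each CDS weigh more on a short CDS.

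In LOF embryos, none of the 26 Hox genes passed the threshold of an adjusted p under 0.1 in RPF, where edgeR's quasi-likelihood test called 2.19% of all transcripts. In RNA none passed either, where 5.02% of all transcripts did, and in translation efficiency, the RPF change beyond the RNA change, none passed and 0% of all transcripts did. At an unadjusted p under 0.05, 3 Hox genes were higher (Hoxa10, Hoxa11 and Hoxc10) and 1 lower (Hoxc8) in RPF, against 7.12% of all transcripts higher and 6.61% lower. Hoxc10, counted there and in RNA, was above 0.75 CPM of RPF in only 2 WT libraries and passed the filter through LOF libraries, so its count is no support. In RNA, 3 were higher (Hoxb5, Hoxb8 and Hoxc10) and 1 lower (Hoxb2), against 7.44% higher and 9.6% lower over all. In translation efficiency, 1 was higher (Hoxb3) and 2 lower (Hoxb8 and Hoxc8), against 2.48% higher and 1.96% lower over all. With DESeq2, 1 Hox gene was called in RPF (Hoxa10) and none in RNA or translation efficiency, and with limma-voom none was called in any of the 3.

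The median RPF log2 fold change, LOF over WT, was 0.06 over the 26 genes, with 17 positive (50.9% of all transcripts were) and 9 negative, and 0.00 over all transcripts. Its direction did not hold, being -0.09 without LOF replicate 3, -0.03 with limma-voom and 2 surrogate variables, and -0.15 with the Y-linked level as a covariate. In RNA it was 0.00, with 13 positive (49.4% of all transcripts were) and 13 negative. Embryos of the genotypes did not overlap in RPF for 3 Hox genes higher in LOF (Hoxa10, Hoxa11 and Hoxc5) and 2 lower (Hoxb2 and Hoxc8), where 9.92% and 9.45% of all transcripts did so. In RNA, 4 were higher without overlap (Hoxa5, Hoxa7, Hoxb5 and Hoxb8) and none was lower, where 10.2% and 12.6% of all transcripts did so. By position along the axis, the median RPF log2 fold change was -0.06 in groups 1 to 4, 0.04 in groups 5 to 8, 0.06 in group 9 and 0.87 in groups 10 to 13. Without Hoxc10 that last median was 0.88. By cluster it was 0.17 for Hoxa, -0.05 for Hoxb, 0.07 for Hoxc and 0.07 for Hoxd.

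**Figure D3:**
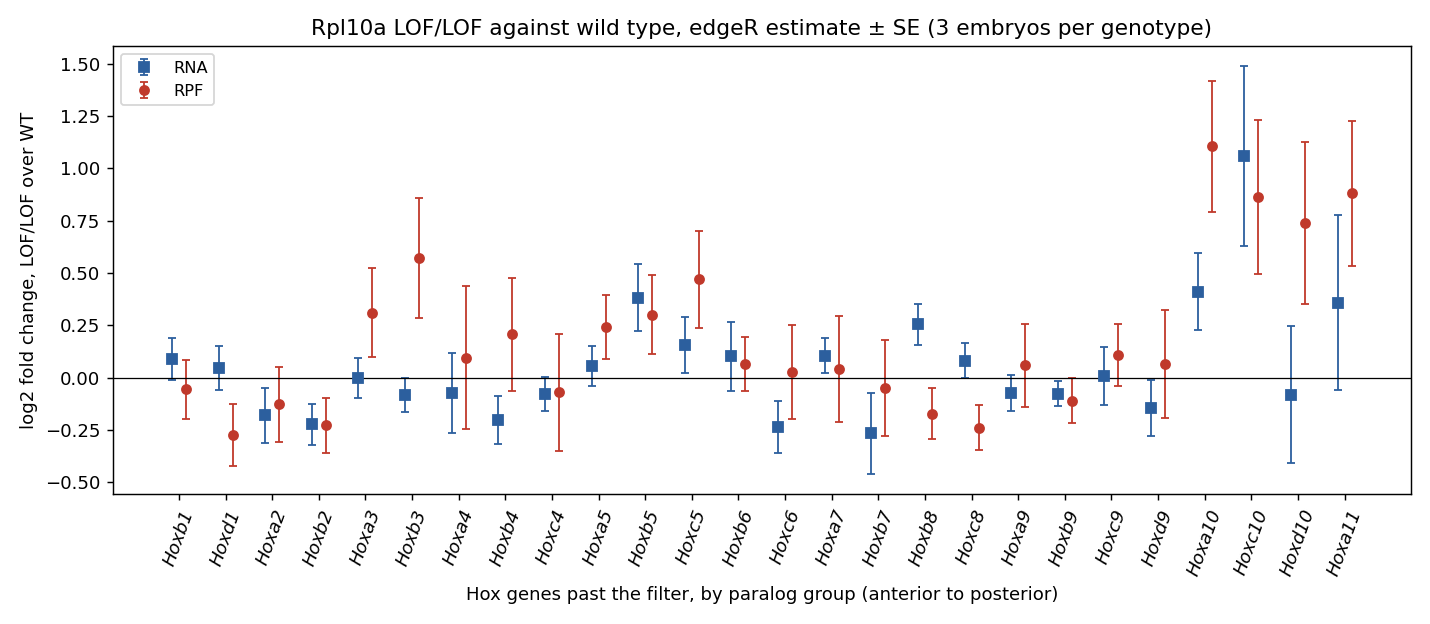
Log2 fold change, LOF over WT, in RNA (squares) and RPF (circles) with its SE from edgeR, for the 26 Hox genes past the filter in order of paralog group, 3 embryos per genotype. Estimates of groups 1 to 9 scatter about 0, and the RPF estimates of the 4 genes of groups 10 and 11 lie between 0.74 and 1.10, none past the adjusted threshold. Among these, Hoxc10 passed the filter through LOF libraries.

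The 4 largest positive RPF estimates were those of the 4 genes of groups 10 and 11 that passed the filter. Hoxc10 is 1 of them and passed the filter through LOF libraries, so its positive sign is no support. Hoxa10 had 2.74, 3.86 and 2.71 CPM of RPF in WT replicates 1 to 3 and 4.81, 4.65 and 9.89 in LOF. Every LOF embryo was above every WT embryo, and LOF replicate 3 was far above the other two. Its log2 fold change was 1.10 ± 0.31 (SE), with an adjusted p of 0.139 (edgeR).

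Hoxa11, its neighbour, had 1.65, 2.57 and 2.71 CPM of RPF in WT and 3.06, 2.79 and 6.37 in LOF, again with replicate 3 highest and no overlap, and a log2 fold change of 0.88 ± 0.35 (adjusted p = 0.287). Hoxc10, a marker of lumbar identity, had 0.91, 0.82 and 0.63 CPM of RPF in WT and 0.87, 1.51 and 1.81 in LOF, which overlapped, with 0.86 ± 0.37 (adjusted p = 0.330). Hoxd10 had 1.01, 1.99 and 1.25 CPM in WT and 2.19, 1.28 and 3.33 in LOF, which overlapped, with 0.74 ± 0.39 (adjusted p = 0.441). These rest on few reads, at most 33 RPF counts per WT embryo.

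The RNA of the same genes was highest in the same embryo. Hoxa10 had 7.34, 6.45 and 8.48 CPM of RNA in WT and 7.80, 9.47 and 13.1 in LOF, and Hoxa11 had 3.05, 3.91 and 6.02 in WT and 2.87, 4.78 and 11.1 in LOF. Hoxc10 had 0.68, 0.77 and 1.30 CPM of RNA in WT and 0.97, 2.17 and 3.32 in LOF, with a log2 fold change of 1.06 ± 0.43 (adjusted p = 0.243). Hoxd10 had 1.35, 1.88 and 1.59 CPM of RNA in WT and 0.97, 1.51 and 2.68 in LOF, with means of 1.61 and 1.72 CPM and a fitted log2 fold change of -0.08 ± 0.33. In all 4 genes LOF replicate 3 was the highest of the 6 embryos in both RNA and RPF. In RPF this embryo was also high over the 22 genes of groups 1 to 9. Their median log2 level relative to the WT mean was 0.26 there, against -0.17 to 0.02 in the other embryos. In RNA that median was -0.08 in LOF replicate 3. Without LOF replicate 3, the RPF log2 fold changes were 0.62 for Hoxa10, 0.35 for Hoxa11, 0.62 for Hoxc10 and 0.29 for Hoxd10, with adjusted p between 0.422 and 0.864. Without LOF replicate 2, Hoxa10 (1.31, adjusted p = 0.0246), Hoxa11 (1.11, adjusted p = 0.0684) and the anterior gene Hoxb3 (0.80, adjusted p = 0.0947) passed the threshold in a fit that called 11.5% of all transcripts. That fit leaves only the LOF embryos with low Y-linked counts, and with the Y-linked level as a covariate the estimates were 0.40 for Hoxa10, 0.08 for Hoxa11, 0.72 for Hoxc10 and -0.15 for Hoxd10. Estimates with this covariate rest mainly on LOF replicate 2, the only LOF embryo with Y-linked levels near those of WT. Without the filter on low counts Hoxa10 passed (adjusted p = 0.0360), as it did with limma-voom and surrogate variables (0.91, adjusted p = 0.0262).

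**Figure D4:**
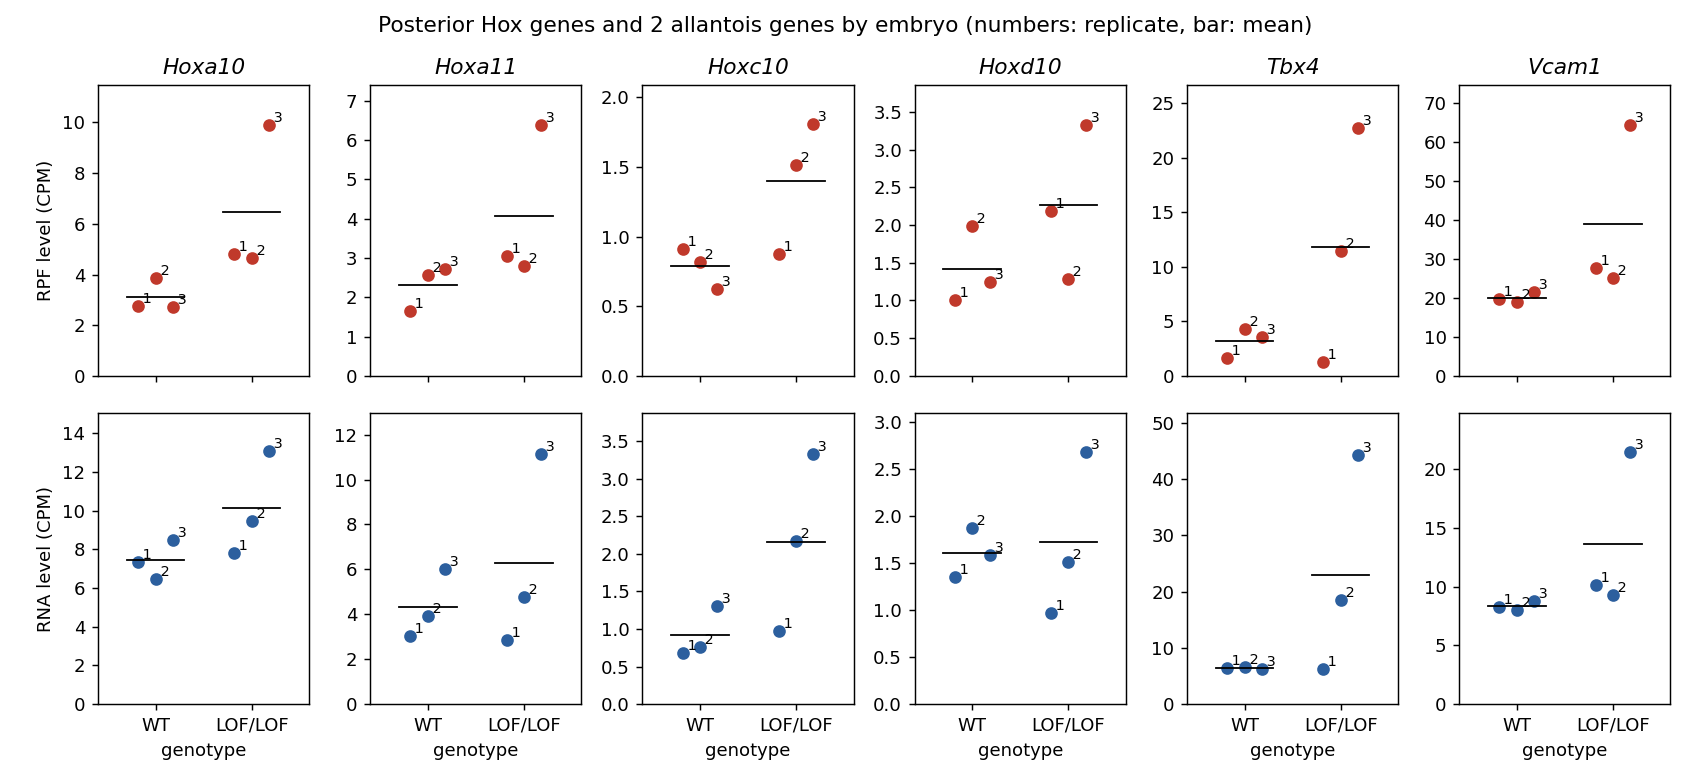
RPF (top row) and RNA (bottom row) levels in CPM of Hoxa10, Hoxa11, Hoxc10, Hoxd10 and the allantois genes Tbx4 and Vcam1 in each embryo, with replicate numbers beside the points and the mean as a bar. LOF replicate 3 is the highest embryo in all 12 panels.

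Genes of the allantois, the posterior outgrowth that forms the umbilical cord and that also transcribes group 10 to 13 genes, stood out in the same embryo. This pair was chosen after the Hox values had been seen. Tbx4, a T-box factor of allantois and hindlimb, had 1.65, 4.33 and 3.54 CPM of RPF in WT and 1.31, 11.4 and 22.7 in LOF. Vcam1, the adhesion molecule with which the allantois joins the chorion, had 19.7, 18.8 and 21.5 CPM of RPF in WT and 27.7, 25.1 and 64.4 in LOF. Both were among the genes not called in RPF, at adjusted p of 0.201 for Tbx4 and 0.165 for Vcam1, and their part in the Hox values was not tested. The summed level of the 3 trophoblast markers was also highest in LOF replicate 3, at 38.0 CPM of RPF against 19.7 to 26.4 in the other embryos and 29.1 CPM of RNA against 20.8 to 24.6, and that of the visceral endoderm markers was lowest there, at 2112 CPM of RPF, and the part of these was not tested either. In whole embryos a different amount of a tissue and a different amount of RNA per cell cannot be told apart.

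Of the 11 Hox genes below the filter, several of groups 11 to 13 also had their highest counts in LOF replicate 3. Hoxc11 had 1, 0 and 1 RPF counts in WT and 2, 2 and 10 in LOF. Hoxa13 had 5, 6 and 2 in WT and 1, 5 and 16 in LOF, and Hoxd13 had 0, 1 and 3 in WT and 2, 3 and 7 in LOF. Hoxc13 had 1, 0 and 1 in WT and none in LOF, Hoxb13 had none in WT and 2, 0 and 1 in LOF, and Hoxd12 had none in any embryo. Hoxd11 had 0, 1 and 0 in WT and 2, 1 and 2 in LOF. Outside these groups, Hoxa6 had 3, 0 and 3 in WT and 2, 3 and 5 in LOF, and Hoxd8, listed by an incomplete model with a counted CDS of 264 bases, had 4, 3 and 7 in WT and 2, 8 and 4 in LOF. A fit without the filter could test 8 of the 11 in RPF, all but Hoxd3, Hoxd4 and Hoxd12, and none of the 8 passed the adjusted threshold, the lowest adjusted p being 0.202 for Hoxc11. Summed over the 11 genes of groups 10 to 13, RPF was 12.2, 11.5 and 24.8 CPM in LOF and RNA 14.0, 20.8 and 36.3 CPM, against the WT sums given above.

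The 4 largest negative RPF estimates were small. Hoxd1 had 9.42, 11.2 and 10.8 CPM of RPF in WT and 9.04, 9.43 and 7.61 in LOF, a log2 fold change of -0.28 ± 0.15 (adjusted p = 0.451). Hoxc8 had 22.9, 26.8 and 27.8 CPM in WT and 21.6, 21.5 and 22.3 in LOF, which did not overlap, with -0.24 ± 0.11 (adjusted p = 0.362). Its RNA was 32.3, 33.5 and 34.8 CPM in WT and 38.0, 36.3 and 31.7 in LOF, which overlapped. Hoxb2 had 13.8, 12.8 and 13.7 CPM of RPF in WT and 9.77, 11.8 and 12.6 in LOF, without overlap, with -0.23 ± 0.13 in RPF (adjusted p = 0.485) and -0.22 in RNA (adjusted p = 0.280).

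Hoxb8, the gene with the highest WT ratio, had 16.6, 14.2 and 15.7 CPM of RPF in WT and 12.5, 14.2 and 14.5 in LOF, while its RNA was 10.4, 11.3 and 11.3 CPM in WT and 12.1, 13.8 and 13.8 in LOF. The RNA was above every WT embryo in all 3 LOF embryos, and the RPF overlapped. Its translation efficiency estimate was -0.43 ± 0.15, with an adjusted p of 1.00, and its ratio was 1.25, 1.26 and 1.26 in LOF against a WT mean of 1.71. Hoxc8, its paralog, had a translation efficiency estimate of -0.32 ± 0.13. Hoxb3 had the opposite sign at 0.65 ± 0.26, from 31, 18 and 34 RPF counts in LOF. All 3 had an adjusted p of 1.00, as did the rest of the 26.

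None of the remaining members of groups 1 to 9 passed the test. Their RPF log2 fold changes ran from -0.13 (Hoxa2) to 0.57 (Hoxb3), and their RNA log2 fold changes from -0.27 (Hoxb7) to 0.38 (Hoxb5). Hoxb9, with the most RNA of any Hox gene, had an RPF change of -0.11 ± 0.11 and an RNA change of -0.08 ± 0.06, and Hoxc9 had 0.11 ± 0.15 and 0.01 ± 0.14. Hoxc5 had 1.83, 2.11 and 2.50 CPM of RPF in WT and 2.92, 2.91 and 3.04 in LOF, which did not overlap, with 0.47 ± 0.23 (adjusted p = 0.407). Hoxa7 had 0.04 ± 0.25 in RPF, and Hoxb1 had -0.06 ± 0.14.

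The proteins that work with Hox factors on DNA, the TALE homeodomain partners Pbx, Meis and Pknox, were all measured, 9 of 9. None was called in RPF, RNA or translation efficiency, where 2.19%, 5.02% and 0% of all transcripts were, and 6 of 9 had positive RPF estimates, as did 50.9% of all transcripts.

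Of 17 factors and signals that set Hox expression, 16 passed the filter and none was called, where 2.19% of all transcripts were in RPF, 5.02% in RNA and 0% in translation efficiency. Of their estimates, 14 of 16 were negative in RPF, with a median of -0.24, 13 of 16 in RNA, with a median of -0.12, and 15 of 16 in translation efficiency, with a median of -0.12, where 6177, 6369 and 6042 of all 12576 transcripts were negative, with medians of 0.00, 0.00 and 0.01. Cdx1 and Cdx2, caudal factors that activate central Hox genes, had RPF estimates of -0.56 ± 0.24 (adjusted p = 0.330) and -0.24 ± 0.08 (adjusted p = 0.237), and Cdx4, the other caudal factor, had -0.10 ± 0.09 (adjusted p = 0.688). Gdf11, a signal for posterior Hox genes, had -0.46 ± 0.17 (adjusted p = 0.261). Rarg had a positive sign, 0.04 ± 0.10. Beside this, all 4 tail bud markers, of which T, Cdx2 and Wnt3a are also in the list of regulators, had negative RPF estimates, and their summed RPF level was 87.2 to 88.2 CPM in WT and 65.9 to 76.4 in LOF. The 6 visceral endoderm markers had a summed RPF level of 5932 to 7762 CPM in WT and 2112 to 4444 in LOF. The part of these tissues in the estimates was not tested.

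All 23 Polycomb and Trithorax genes, which hold Hox clusters silent or active, passed the filter, and 1 was called: Cbx7, a Polycomb subunit, fell by 0.56 ± 0.12 on the log2 scale in RNA (adjusted p = 0.0401), where 5.02% of all transcripts were called. In RPF, 14 were positive and 9 negative, with a median of 0.05. Bmi1 had 0.43 ± 0.16 (adjusted p = 0.256), and Ctcf, which sets boundaries within the clusters, had 0.23 ± 0.07 (adjusted p = 0.176). Of 10 related homeobox genes, 6 passed and 1 was called, En2, a midbrain gene, which fell by 0.60 ± 0.14 in RNA (adjusted p = 0.0530). Evx1, which flanks the Hoxa cluster, had -0.22 ± 0.12 in RPF (adjusted p = 0.477).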

How the data were processed

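Per the paper's methods, the authors trimmed reads with UMI-tools, FASTX-Toolkit and cutadapt, discarded structural RNA reads found by bowtie2, mapped what remained onto canonical GRCm38/mm10 transcripts and collapsed PCR duplicates. The deposited values are raw counts per transcript: RPF reads with the A site in the CDS without its first 15 and last 5 codons, and RNA reads on the whole transcript. Replicates are single embryos.

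Transcript IDs were matched to GENCODE vM21 (21976 with the same version, 477 with another, 14 unmatched), which gave symbols, lengths and sequences. Of the 38 gene names fixed, Hoxc12 was not analysed here, and 1 further row that fits the rule is not reported here. The members and gene lists were chosen with earlier results of these data known. Genes were described sample by sample when called, when highest in RPF in their cluster, or when among the 4 most extreme in WT ratio or RPF change in either direction, with their paralogs.

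Counts were tested with edgeR 4.0.16 (R 4.3.3): transcripts over 0.75 CPM in at least 3 RPF libraries, TMM per kind of library, quasi-likelihood F test, Benjamini-Hochberg adjustment over all 12576 transcripts, threshold 0.1. Translation efficiency is the genotype by library kind interaction over 12 libraries. Levels are TMM-scaled CPM. WT ratios used a pseudocount of 0.5 counts. The fits were tested on simulated data with changes in RPF only, and changes in RNA were not simulated. Alternatives were DESeq2 1.42.0, limma-voom (limma 3.58.1), voom with sva 3.50.0, RLE scaling, other filters, blocks, a Y-linked covariate and leaving out each embryo. The RPF and RNA libraries of an embryo come from the same embryo, which pairs them, and their deviations from the group means correlated at 0.19 to 0.40.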

Additional observations from a re-analysis of the deposited data

How the results depend on the processing

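The count of Hox genes called in RPF, 0, became 1 with DESeq2, 1 with limma-voom and 2 surrogate variables and 1 without the filter, each time Hoxa10, and ran from 0 to 3 when each embryo was left out. In RNA, 0 became 1 (Hoxc10, log2 fold change 1.27) with the replicate number as a block, and ran from 0 to 1 over embryos left out (Hoxc10 without LOF replicate 1, 1.45). In translation efficiency it stayed 0 under all 11 alternatives. The other alternatives gave 0 in RPF and RNA. Over all transcripts the calls in RPF, 276, were 1306 with surrogate variables, 437 without the filter, 22 with the Y-linked covariate and 4 to 1449 over embryos left out; in RNA, 631 became 37 with the covariate and 138 to 594 over embryos left out, and in translation efficiency, 0 became 4 with DESeq2 and at most 26 over embryos left out. The median RPF log2 fold change, 0.06, was -0.15 with the Y-linked covariate and -0.03 with limma-voom and 2 surrogate variables. Over embryos left out it ran from -0.089 (without LOF replicate 3) to 0.20 (without LOF replicate 2). Of the extreme RPF changes, only that of Hoxd10 turned sign, to -0.15 with the Y-linked covariate. The median WT ratio, -0.15, was -0.74 without scaling for length, and ran from -0.26 to -0.05 over embryos left out.

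The genotypes share replicate numbers, but the deviations of same-numbered WT and LOF embryos correlated at only -0.10 to 0.08, so the numbers were not taken as pairs. With the block, 0 Hox genes were called in RPF. The embryo block in translation efficiency, where the pairing is real, also called 0. Of the 37 Hox genes, 11 did not pass the filter on low RPF counts, 7 of them in groups 11 to 13. Embryo sex and genotype are partly confounded, since no WT embryo had low Y-linked counts. The genotype estimates with the Y-linked covariate therefore rest mainly on LOF replicate 2.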
